A study of Mus musculus with 20 samples.

Results

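The set described here holds the nuclear-encoded subunits of the oxidative phosphorylation machinery, grouped by complex, in myotubes given H2O2. Members were the probe sets whose only gene symbol in the array's annotation begins with Nduf, Uqcr or Atp5, is Cyc1, Sdha, Sdhb, Sdhc or Sdhd, or begins with Cox4, Cox5, Cox6, Cox7 or Cox8 and goes on with a letter. There were 157 such probe sets for 85 genes, of 22626 non-control probe sets for 12393 genes. Of these, 143 probe sets for 82 genes were bright enough to be tested, and the 14 left out included every probe set of Cox4i2, Cox6b2 and Cox7c. Complex I had 68 probe sets for 34 genes (65 tested), complex II 7 for 4 genes (7 tested), complex III 16 for 9 genes (14 tested), complex IV 32 for 16 genes (25 tested) and complex V 28 for 17 genes (26 tested). A further 6 probe sets for 5 genes, all tested, belonged to Ndufaf assembly factors of complex I, which are not subunits and are kept apart. Another 8 probe sets carried a member's symbol together with other symbols and were not counted.

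The myotubes came from C2C12, an established line of mouse myoblasts that fuse into multinucleated muscle fibres in culture. They were differentiated for 96 h in medium low in horse serum and then kept for 2 h in medium with 0.5% horse serum and 0, 1, 10, 100 or 1000 µM H2O2, a diffusible oxidant. Each dose had 4 samples of total RNA, each read on its own array (Affymetrix, mouse, type 430A), on which several short probes (a probe set) report 1 transcript. All 5 groups are the same line, with no genetic change named in the labels, and the untreated group had the same serum and time. The 4 replicates of a dose are described as independent, without saying whether each had its own dish, so a p-value here speaks for the spread among arrays, part of which may be technical. In such bulk RNA, fewer cells of a kind and less RNA per cell cannot be told apart.

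Oxidative phosphorylation is the chain of protein complexes in the inner mitochondrial membrane that makes most of the ATP of oxidative muscle. Complexes I and II pass electrons from NADH and succinate to ubiquinone, complex III hands them to cytochrome c, complex IV gives them to oxygen, and complex V uses the proton gradient so built to make ATP. Complexes I and III are also sites where superoxide, a source of H2O2, is formed. A few subunits of complexes I, III, IV and V are encoded in mitochondrial DNA and fall outside the symbol rule. Nuclear genes of the complexes are known for binding sites of NRF1, of the ETS factor GABP and of YY1 close to their start sites.

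The letters of those sites were looked for, on both strands, in RefSeq promoter sequences (GRCm38.p6, 250 bases before to 50 after the start) of the 70 member genes that had an entry, out of 85. Counts are of genes, and a gene with several entries counted if any of them held the letters. The letters GCGCATGCG, for NRF1, were found for 9 member genes, 12.9%, against 1.95% of all 27025 genes with an entry. The letters CCGGAAG, for GABP, were found for 18 member genes, 25.7%, against 9.93% of all. AAGATGGCG, for YY1, was found for 8.57% of member genes against 1.64%. TCAAGGTCA, for the nuclear receptor ESRRA, was found for 2.86% against 0.466%. TGACNNNGC, the letters of the antioxidant response element, was found for 14.3% against 14%. A match is a description of the sequence, and says nothing of binding. By complex, NRF1 letters were found for 1 of 31 genes in complex I, 0 of 3 in complex II and 2 of 5 in complex III. They were found for 1 of 11 in complex IV and 3 of 15 in complex V. GABP letters were found for 4, 2, 2, 3 and 6 of the same genes, and YY1 letters for 4, 0, 0, 0 and 2. The counts over all member genes also take in the Ndufaf assembly factors. Of these, Ndufaf4 and Ndufaf5 held NRF1 letters and Ndufaf1 held GABP letters. Of the 12 genes with an entry that rose at 1000 µM, described further on, 3 held the NRF1 letters and 5 the GABP letters. The YY1 letters were held by 0 of the 12, the ESRRA letters by 1 and those of the antioxidant response element by 2. Of the genes whose probe set rose at the top dose, 4, from 4 different complexes, held NRF1 or GABP letters wholly within the 250 bases before the start. Their promoters are printed. Matches that reach or lie past the start, such as GABP letters of Cox8a (-5 to 2) and Ndufs8 (16 to 22), are not. The printed promoters are shown over the 250 bases before the start, on the gene's own strand. The letters of the NRF1 and GABP motifs, read on either strand, are in capitals.
Ndufa8, complex I, chr2:36049339-36049588 (minus strand): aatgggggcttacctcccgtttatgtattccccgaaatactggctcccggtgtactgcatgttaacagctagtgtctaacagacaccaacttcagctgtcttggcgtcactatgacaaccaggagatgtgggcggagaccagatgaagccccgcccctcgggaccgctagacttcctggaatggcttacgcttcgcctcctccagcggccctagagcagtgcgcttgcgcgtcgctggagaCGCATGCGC
Sdhd, complex II, chr9:50603850-50604099 (minus strand): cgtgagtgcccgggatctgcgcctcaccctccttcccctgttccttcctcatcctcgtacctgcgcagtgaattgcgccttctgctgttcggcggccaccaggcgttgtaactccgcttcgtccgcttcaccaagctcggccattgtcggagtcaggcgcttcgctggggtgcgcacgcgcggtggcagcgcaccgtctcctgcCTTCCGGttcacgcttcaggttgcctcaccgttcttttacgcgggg
Cox6a1, complex IV, chr5:115348959-115349208 (minus strand): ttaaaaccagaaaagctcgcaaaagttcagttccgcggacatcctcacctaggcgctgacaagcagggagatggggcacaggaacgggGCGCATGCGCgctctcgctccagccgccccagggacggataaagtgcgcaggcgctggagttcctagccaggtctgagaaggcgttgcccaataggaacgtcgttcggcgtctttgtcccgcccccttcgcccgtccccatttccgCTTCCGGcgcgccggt
Atp5h, complex V, chr11:115419920-115420169 (minus strand): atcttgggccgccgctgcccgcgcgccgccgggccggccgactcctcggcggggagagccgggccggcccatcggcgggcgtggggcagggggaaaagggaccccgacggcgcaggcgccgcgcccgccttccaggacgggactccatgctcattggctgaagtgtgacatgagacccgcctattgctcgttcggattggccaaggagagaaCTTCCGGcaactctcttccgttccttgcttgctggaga
Counted from the start site, Ndufa8 holds NRF1 letters at positions -9 to -1. Sdhd holds GABP letters at -46 to -40 and Atp5h at -38 to -32. Cox6a1 holds GABP letters at -16 to -10 and NRF1 letters at -162 to -154, where a match on the other strand, at -161 to -153, overlaps the first. No match of 1 motif overlaps a match of a different motif in these 4 sequences.

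The labelled cell type was checked first. All 11 myotube markers of a list (among them Myog, Ckm, Acta1 and Myh3) lay above the brightness limit on all 20 arrays, and their summed signal was 71177 to 75715 at 1000 µM against 60669 to 67401 in untreated myotubes. The median log2 change of the list there was 0.11 on the deposited scale and -0.09 after quantile normalization, which gives every array the same distribution of values. Tnnt3, a fast troponin, rose at 1000 µM on the deposited scale (0.32, adjusted p = 0.034) and missed the test after quantile normalization (0.07, adjusted p = 0.604). The 3 adipocyte markers and the 3 leukocyte markers on the array lay below the limit in all untreated and all 1000 µM samples. All 7 markers of cycling cells on the array lay above the limit in both groups, with a summed signal of 7307 to 8001 at 1000 µM against 7172 to 8383 untreated, and so did 3 of 4 markers of reserve cells. Of the 7, Mki67, a marker of proliferating cells, fell by 0.50 at 1000 µM (adjusted p = 0.00268) and by 0.46 after quantile normalization (adjusted p = 0.0126), and Plk1, a mitotic kinase, fell by 0.44 at 100 µM (adjusted p = 0.0202) and by 0.41 after quantile normalization (adjusted p = 0.019). The part of such cells in the results was not tested. Hmox1, a gene that oxidants induce, rose by 1.96 ± 0.13 (log2 change ± SE, adjusted p = 6.15e-09) at 100 µM and by 1.45 ± 0.13 (adjusted p = 3.55e-07) at 1000 µM. The other genes of the same 3-gene list, Srxn1 and Txnrd1 of the thiol antioxidant system, rose at 100 µM (1.30 and 0.80) but missed the test at 1000 µM (0.18, adjusted p = 0.518, and 0.21, adjusted p = 0.0979), and all 3 were lower at 1000 than at 100 µM by limma's test (median -0.59). The 4 arrays numbered 1 and the unnumbered 10 µM array, called 10 µM replicate 1 here, stood apart from the other 15 on the first principal component (28.2% of the variance), and 1 such array lies in each dose. Results are therefore also given within replicates 2 to 4.

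At 1, 10 and 100 µM, no member passed the test against untreated myotubes. limma's test at an adjusted p under 0.05 called 0 of 143 probe sets in either direction at each of these doses. Of all 14379 tested probe sets, it called 0% rising and 0% falling at 1 µM, 0% rising and 0.00695% falling at 10 µM, and 0.862% rising and 0.355% falling at 100 µM. At an unadjusted p under 0.05, 12 members were higher and 3 lower at 1 µM (beside 2.46% and 4.21% of all tested probe sets). By the same rule 12 were higher and 1 lower at 10 µM, beside 1.66% and 3.32% of all, and 14 higher and 0 lower at 100 µM, beside 4.46% and 6.69% of all. After quantile normalization the adjusted counts were again 0, where 1.08% of all tested probe sets rose and 0.299% fell at 100 µM. The unadjusted counts were then 4 higher and 4 lower at 1 µM (2.83% and 2.97% of all), 6 and 1 at 10 µM (2.12% and 1.82% of all), and 4 and 0 at 100 µM (5.56% and 4.84% of all). Within replicates 2 to 4, 2 members fell at 1 µM, where 0.612% of all tested probe sets fell. They were the Sdhc probe set 1435986_x_at (-0.51, adjusted p = 0.0187) and the Atp5o probe set 1437164_x_at (-0.46, adjusted p = 0.0292).

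At 100 µM the largest values in each complex were small or uncertain, and none passed the test. The highest were 0.67 for Ndufa10 (1418068_at, adjusted p = 0.418) in complex I, 0.17 for Sdhd, 0.20 for Uqcrb, 0.24 for Cox6c (1415970_at) and 0.32 for Atp5a1 (1420037_at). The lowest were -0.36 for Ndufab1 (1428160_at), -0.36 for Sdhd (1437489_x_at), -0.54 for Uqcrq (1427880_at), -0.27 for Cox8c and -0.30 for Atp5o (1437164_x_at). Among assembly factors the range was -0.06 for Ndufaf3 to 0.23 for Ndufaf5. Groups did not overlap for 6 members that were higher and 1 that was lower at 100 µM, beside 3.79% and 5.19% of all tested probe sets.

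At 1000 µM, 13 member probe sets of 13 genes rose and 0 fell by limma's test. That is 9.09% of the 143 tested, where 2.46% of all tested probe sets rose and 8.48% fell. At an unadjusted p under 0.05, 42 members were higher and 1 lower, beside 7.9% and 18.3% of all tested probe sets. The count was 3 of 65 in complex I (Ndufs8, Ndufa7, Ndufa8), 1 of 7 in complex II (Sdhd), 3 of 14 in complex III (Uqcrc1, Uqcr10, Uqcrb), 5 of 25 in complex IV (Cox6a1, Cox8a, Cox5a, Cox7a2, Cox5b) and 1 of 26 in complex V (Atp5h). The rises were small, from 1.18-fold for Ndufa8 to 1.35-fold for Uqcrc1. All of this holds for the scale on which the values were deposited, in which the authors' software brings each array to 1 common trimmed mean. After quantile normalization, 0 of these 13 passed the test, and the only member called was Ndufaf5, an assembly factor that acts on the complex I subunit Ndufs7. Across all tested probe sets, 294 rose and 477 fell after quantile normalization (2.04% and 3.32%), against 354 and 1220 on the deposited scale. At an unadjusted p under 0.05 after quantile normalization, 10 of the 143 members were higher and 3 lower, beside 8.14% and 10.3% of all.

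**Figure D1:**
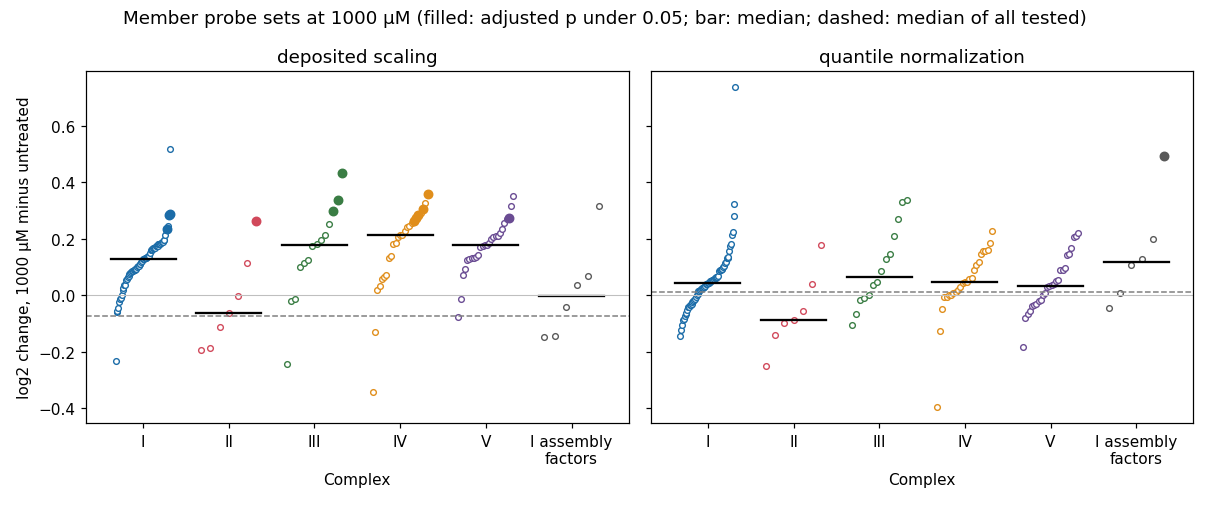
Log2 change of each of the 143 tested member probe sets at 1000 µM against untreated myotubes, by complex, on the deposited scale (left) and after quantile normalization (right). Points are probe sets (filled where the adjusted p was under 0.05), bars are medians of each complex, and the dashed line is the median of all 14379 tested probe sets. The medians of complexes I, III, IV and V lie between 0.13 and 0.21 on the left and between 0.03 and 0.07 on the right, and that of complex II lies below 0 in both (0.14, beside 0.13 for all tested, with arrays centred on their medians, not drawn).

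Complex I takes electrons from NADH. Ndufs8, which carries iron-sulfur clusters of its electron path, had signals of 3855, 3360, 3710 and 3568 at 1000 µM, against 2768, 3144, 3211 and 2761 in untreated myotubes. The 4 treated values lie above the 4 untreated ones, and the change was 0.29 ± 0.08 (log2, SE, adjusted p = 0.032). Ndufa7, an accessory subunit, had 4982, 4929, 5386 and 4795 at 1000 µM, against 4030, 4168, 4241 and 4049 untreated. Its groups are well separated, with a change of 0.28 ± 0.06 (adjusted p = 0.00495), and at 1, 10 and 100 µM its means of 4387, 4345 and 4415 lay between those of the top dose and the untreated group. Ndufa8, an accessory subunit with disulfide-forming cysteines, had 3011, 3149, 3244 and 3270 at 1000 µM, against 2477, 2736, 2791 and 2762 untreated. It changed by 0.24 ± 0.07 (adjusted p = 0.0305), again without overlap of the groups.

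Other core subunits of complex I did not pass the test at 1000 µM. Changes were 0.11, 0.09 and -0.01 for the 3 probe sets of Ndufv1, which binds NADH and flavin, and 0.16, 0.09 and 0.09 for those of Ndufv2, its iron-sulfur partner. Ndufs1 was at -0.06, Ndufs3 at 0.20, and Ndufs7, near the ubiquinone site, at 0.13 and 0.09. The highest and lowest values in this complex both missed the test, Ndufa10 (1418068_at) at 0.52 (adjusted p = 0.304) and Ndufs4 (1418117_at) at -0.23 (adjusted p = 0.428). Ndufa4, whose symbol puts it in complex I but which is now known as a subunit of complex IV, was at 0.23 (adjusted p = 0.297), and complex I without it had a median of 0.12. Of the assembly factors, Ndufaf5 had 282, 294, 285 and 283 at 1000 µM against 172, 258, 267 and 235 untreated. Its change was 0.32 (adjusted p = 0.145) on the deposited scale and 0.50 (adjusted p = 0.045) after quantile normalization. The other 5 probe sets, for Ndufaf1, Ndufaf3, Ndufaf4 and Ndufaf7, lay between -0.15 and 0.07.

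Complex II is also the succinate dehydrogenase of the citric acid cycle, and 1 of its 7 probe sets rose. Sdhd, a membrane anchor, had 2830, 2641, 2966 and 2873 at 1000 µM, against 2538, 2288, 2364 and 2233 untreated. It rose by 0.26 ± 0.07 (adjusted p = 0.0277). Its other probe set (1437489_x_at) was at -0.19 (adjusted p = 0.763), so the gene's probe sets point in opposite directions. The catalytic subunits did not pass the test: Sdha, the flavin subunit, was at -0.06 and -0.11, and Sdhb, the iron-sulfur subunit, at 0.12. The 2 probe sets of the anchor Sdhc were at -0.00 and -0.19. The Sdha probe set 1426689_s_at had 1299, 1265, 1291 and 1331 at 1000 µM, against 1392, 1385, 1437 and 1391 untreated. It was the single member with all 4 treated arrays below all 4 untreated ones on the deposited scale, although its adjusted p was 0.513.

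Complex III held Uqcrc1, which had the largest change among the 13 members that rose. Uqcrc1, a core subunit of the matrix side, had 2952, 3783, 3022 and 2987 at 1000 µM, against 2482, 2351, 2224 and 2330 untreated, a rise of 0.43 ± 0.12 (adjusted p = 0.0251). Replicate 2 at 1000 µM stands above the other 3, and without it the change was 0.35 (adjusted p = 0.0944). Uqcr10, a small membrane subunit, had 1388, 1710, 1672 and 1682 at 1000 µM, against 1213, 1337, 1433 and 1131 untreated. It rose by 0.34 ± 0.10 (adjusted p = 0.04), although its lowest treated array lies below the highest untreated one. Uqcrb, which helps bind ubiquinone, had 13800, 10979, 12333 and 11264 at 1000 µM, against 8649, 10339, 10353 and 9933 untreated. It rose by 0.30 ± 0.09 (adjusted p = 0.0338) on the deposited scale but was at -0.00 (adjusted p = 0.997) after quantile normalization. The electron-carrying subunits did not pass the test, with Cyc1, the haem protein, at 0.12 and Uqcrfs1, the Rieske iron-sulfur protein, at -0.01. The core subunit Uqcrc2 was at 0.10 and -0.02, and the lowest value was that of Uqcrq (1427880_at) at -0.24.

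Complex IV, cytochrome c oxidase, had 5 members that rose. Cox6a1, the general form of a subunit with a separate muscle form, had 6884, 7188, 7678 and 6807 at 1000 µM, against 4400, 6066, 6055 and 5903 untreated. It rose by 0.36 ± 0.10 (adjusted p = 0.0252). Untreated replicate 1 stands below the other 3, and without it the change was 0.25 (adjusted p = 0.0809). Cox8a, also a general form, had 4978, 4232, 4388 and 4160 at 1000 µM, against 3492, 3612, 3700 and 3516 untreated, with a rise of 0.31 ± 0.09 (adjusted p = 0.0299). Its 100 µM values of 4104, 4117, 4096 and 4307 were also all above the untreated ones, but that change, 0.22, had an adjusted p of 0.338. Cox5a had 6826, 6707, 6953 and 6520 at 1000 µM against 5805, 5471, 5674 and 5260 untreated, a rise of 0.28 ± 0.07 (adjusted p = 0.0184).

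Cox7a2 (1416971_at), also a general form with a muscle counterpart, had 4910, 4740, 4864 and 4687 at 1000 µM against 3719, 3970, 4238 and 3954 untreated. It rose by 0.28 ± 0.07 (adjusted p = 0.0141). Cox5b, which binds zinc, had 5546, 4638, 4793 and 4702 at 1000 µM against 3841, 4311, 4364 and 3858 untreated, and rose by 0.26 ± 0.08 (adjusted p = 0.0327). In each of these 5 members all treated arrays lie above all untreated ones. Cox4i1, an early-assembling subunit, was at 0.18 and Cox6b1 at 0.24 and 0.21, and Cox7a2l, a factor that joins complexes III and IV into larger assemblies, was between 0.06 and 0.13. None of these passed the test.

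The muscle forms of the same subunits did not pass the test at any dose. At 1000 µM the changes were 0.02 ± 0.09 for Cox6a2, 0.03 ± 0.20 for Cox7a1 and 0.06 ± 0.20 for Cox8b. Cox6a2 averaged 2101 ± 88.4 at 1000 µM and 2085 ± 291 untreated (SD, n = 4 each). Cox7a1 averaged 153 ± 25.7 at 1000 µM and 153 ± 49.4 untreated. Cox8b averaged 802 ± 221 at 1000 µM and 751 ± 142 untreated. These signals were lower than those of the general forms that rose, and changes on the deposited scale differed by brightness, as given further on. Cox6a2 was nonetheless in the brightest of the 5 classes used there, which also held all 13 members that rose. After quantile normalization no general form passed the test at 1000 µM either. The difference in response between general and muscle forms was not tested.

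**Figure D2:**
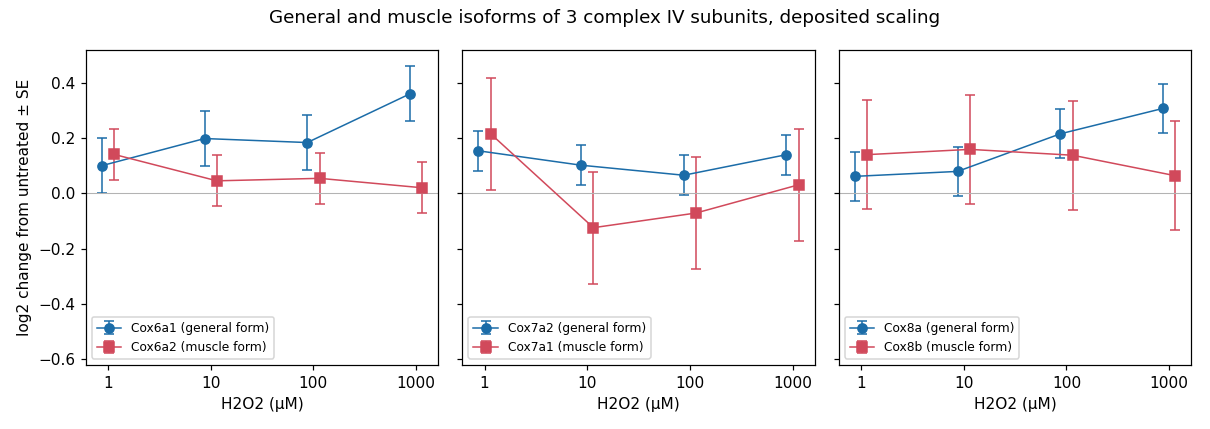
Log2 change from untreated myotubes (± SE, 4 arrays a group) at 1, 10, 100 and 1000 µM for the general form (circles) and the muscle form (squares) of 3 complex IV subunits, each by its brightest tested probe set, on the deposited scale. At 1000 µM Cox6a1 (0.36) and Cox8a (0.31) lie above their muscle forms Cox6a2 (0.02) and Cox8b (0.06). The brightest Cox7a2 probe set is at 0.14 beside 0.03 for Cox7a1. The muscle forms had the lower signals, and after quantile normalization (not drawn) no general form passed the test at 1000 µM.

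Cox6c, another small subunit of complex IV, moved differently by probe set. The probe set 1434491_a_at had 1950, 1801, 1770 and 1708 at 1000 µM, against 1890, 2699, 2340 and 2304 untreated. At 10 µM it had 2745, 2800, 3017 and 2900, and at 100 µM 1570, 2803, 2722 and 2726. It passed the F-test over the 5 doses (adjusted p = 0.0438, and 0.0319 after quantile normalization), but not the comparison of 1000 µM with untreated myotubes (-0.34 ± 0.14, adjusted p = 0.126), where the groups overlap through replicate 1. Within replicates 2 to 4 it fell by 0.47 (adjusted p = 0.000588). The other probe set, 1415970_at, was at 0.29 (adjusted p = 0.0727) at 1000 µM, and averaged 8616 ± 594 there against 7073 ± 855 untreated (SD, n = 4 each).

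Complex V makes ATP. Atp5h, subunit d of its peripheral stalk, had 4993, 5470, 5698 and 5582 at 1000 µM, against 3991, 4275, 4970 and 4812 untreated, and rose by 0.27 ± 0.08 (adjusted p = 0.03). At 1 µM it had 4153, 4088, 4188 and 4033, so the lowest mean of the dose series, 4116, was at 1 µM. It was the member with the smallest adjusted p in the F-test over the doses, 0.0183. It passed after quantile normalization as well, at 0.00932. These values are those of the probe set 1435112_a_at, and the other Atp5h probe set (1423676_at) missed the F-test (adjusted p = 0.767). The catalytic head did not pass the test: Atp5b (beta) was at 0.21, Atp5c1 (gamma) at 0.18, Atp5d (delta) at 0.26 and 0.32, Atp5e (epsilon) at 0.09, and the 3 probe sets of Atp5a1 (alpha) between -0.01 and 0.14. The genes of the rotating c ring, Atp5g1, Atp5g2 and Atp5g3, were at 0.18, 0.17 and 0.23. The highest value in this complex was that of Atp5k (1422525_at), subunit e, at 0.35 (adjusted p = 0.0877), and the lowest that of Atp5md at -0.08.

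**Figure D3:**
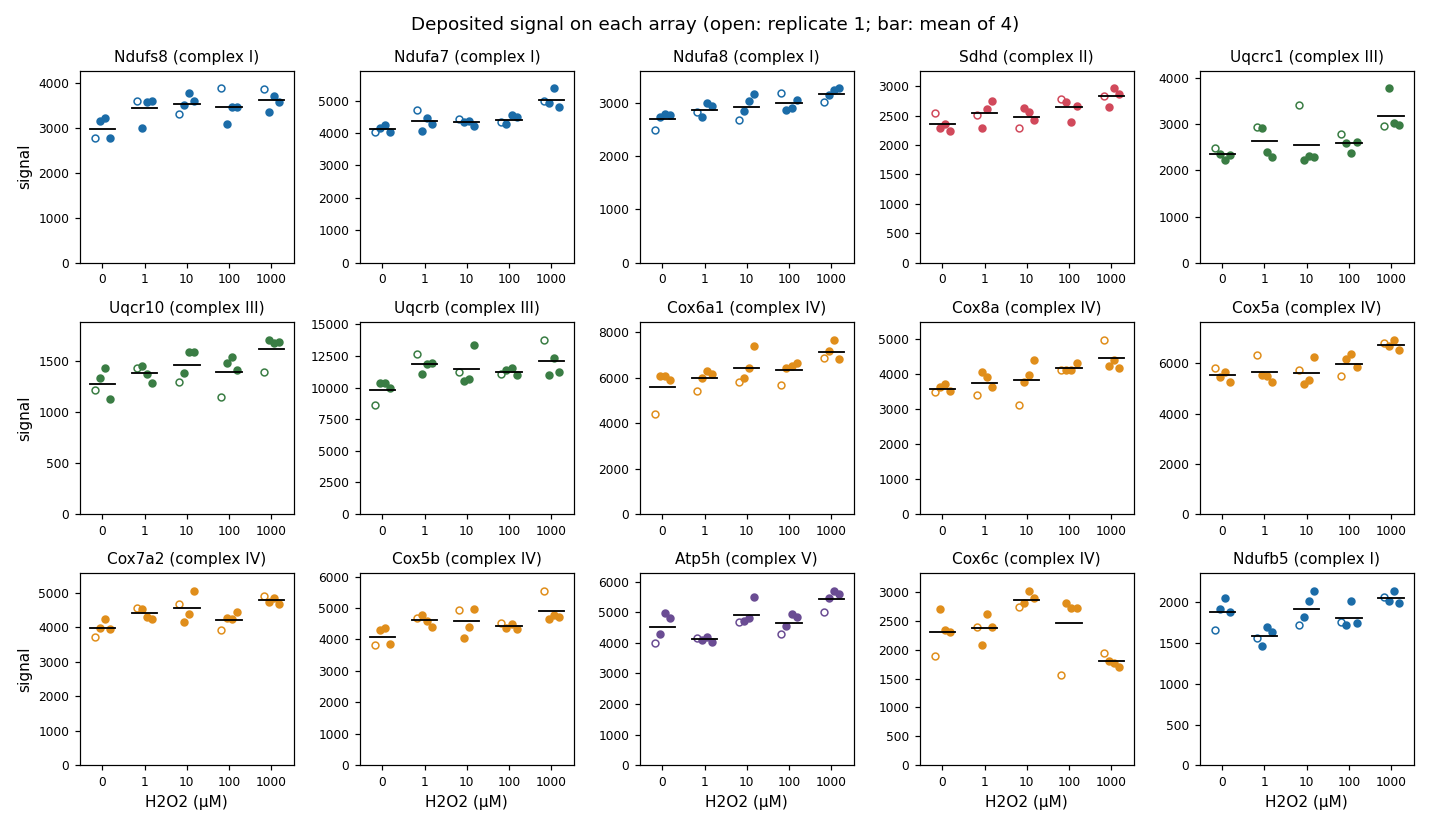
Deposited signal on each of the 20 arrays for the 13 probe sets that rose at 1000 µM and for the Cox6c and Ndufb5 probe sets that passed only the F-test over doses. Points are arrays (open for replicate 1) and bars are means of 4. The 1000 µM arrays lie above all untreated arrays in 12 of the 13, all but Uqcr10, and Cox6c (1434491_a_at) is at 1708 to 1950 at 1000 µM.

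In the F-test for any change over the 5 doses, 4 members passed, 2.8% of the 143, where 8.01% of all tested probe sets did. They were Atp5h, Ndufa7 (adjusted p = 0.0372), Cox6c and Ndufb5, an accessory subunit of the membrane arm of complex I (adjusted p = 0.0479). Each was called by 1 probe set. The other probe sets missed the F-test (adjusted p = 0.767 for Atp5h, 0.26 for Cox6c, 0.871 for Ndufb5, and 0.457 to 0.917 for Ndufa7). The called Ndufb5 probe set (1417102_a_at) averaged 1587 ± 102 at 1 µM, its lowest mean, and 2052 ± 65.4 at 1000 µM, its highest. It averaged 1878 ± 161 untreated (SD, n = 4 each). After quantile normalization, with a background of 5.44%, Atp5h and Cox6c passed, while Ndufa7 (0.662) and Ndufb5 (0.074) did not. The F-test rested on single arrays: it called 0 members without 1000 µM replicate 2, 3 or 4, 1 without untreated replicate 3 or 4, 10 µM replicate 2 or 3, 100 µM replicate 4 or 1000 µM replicate 1, and 2 without untreated replicate 2, 1 µM replicate 3 or 4 or 100 µM replicate 2, where 4.69% to 7.32% of all tested probe sets passed. A linear trend over dose rank called 10 members rising and 0 falling, with a background of 2.82% rising and 8.39% falling over all tested probe sets. All 10 were among the 13 that rose at the top dose, and after quantile normalization limma called 0 (12 higher and 2 lower at an unadjusted p under 0.05, beside 9.1% and 10.8% of all), where 3% of all tested probe sets rose and 3.68% fell. Between neighbouring doses, limma called 0 members. At an unadjusted p under 0.05, 4 were higher and 2 lower at 10 against 1 µM (1.62% and 1.7% of all), 1 higher and 1 lower at 100 against 10 µM (4.51% and 3.64% of all), and 16 higher and 2 lower at 1000 against 100 µM (4.62% and 13.2% of all). By the adjusted test, of all tested probe sets, 0% rose and 0% fell in the first of these, 0.772% rose and 0.16% fell in the next, and 0.744% rose and 3.6% fell in the last. After quantile normalization the adjusted counts stayed at 0, with 5 higher and 3 lower (1.75% and 1.51% of all), 2 and 1 (4.42% and 3.8%), and 6 and 1 (6.06% and 9.03%) at an unadjusted p under 0.05. The adjusted backgrounds there were 0.765% rising and 0.167% falling for 100 against 10 µM and 0.73% and 1.82% for 1000 against 100 µM. The comparisons with untreated myotubes share those 4 arrays.

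By complex, the medians at 1000 µM were above 0 for complexes I, III, IV and V under both scalings and below 0 for complex II, which lay at 0.14 when each array was centred on its median, a shift of all probe sets of an array alike that put the median of all tested at 0.13. On the deposited scale the median log2 change was 0.13 in complex I, -0.06 in complex II, 0.18 in complex III, 0.21 in complex IV and 0.18 in complex V, beside -0.07 over all tested probe sets. After quantile normalization these were 0.04, -0.09, 0.07, 0.05 and 0.03, beside 0.01. With 1 probe set a gene, complex II was at 0.06 on the deposited scale and -0.02 after quantile normalization, so its direction rests on how its 7 probe sets of 4 genes are counted. In all, 84.6% of member probe sets were above 0 on the deposited scale, where 39% of all tested probe sets were, and 69.2% against 52.2% after quantile normalization. These medians are descriptions with no test, since the members were chosen with earlier results known.

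Array by array, the median level of complexes I, III, IV and V at 1000 µM was above every untreated array on the deposited scale. Relative to the untreated mean, the 4 arrays at 1000 µM lay at 0.11 to 0.14 in complex I against -0.03 to 0.05 for the untreated arrays. In complex IV they lay at 0.19 to 0.24 against -0.09 to 0.08, in complex III at 0.10 to 0.22 against -0.05 to 0.07, and in complex V at 0.13 to 0.23 against -0.19 to 0.09. After quantile normalization complexes I, III and IV were still above every untreated array (at 0.04 to 0.05, at 0.05 to 0.16 and at 0.05 on each array), complex V overlapped (-0.04 to 0.07 against -0.05 to 0.05), and complex II lay below (-0.10 to -0.06 against -0.06 to 0.04), its nearest arrays almost touching. At 1, 10 and 100 µM every complex overlapped the untreated arrays under both scalings. Complex IV at 1 µM, for example, lay at 0.07 to 0.15 against -0.09 to 0.08.

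**Figure D4:**
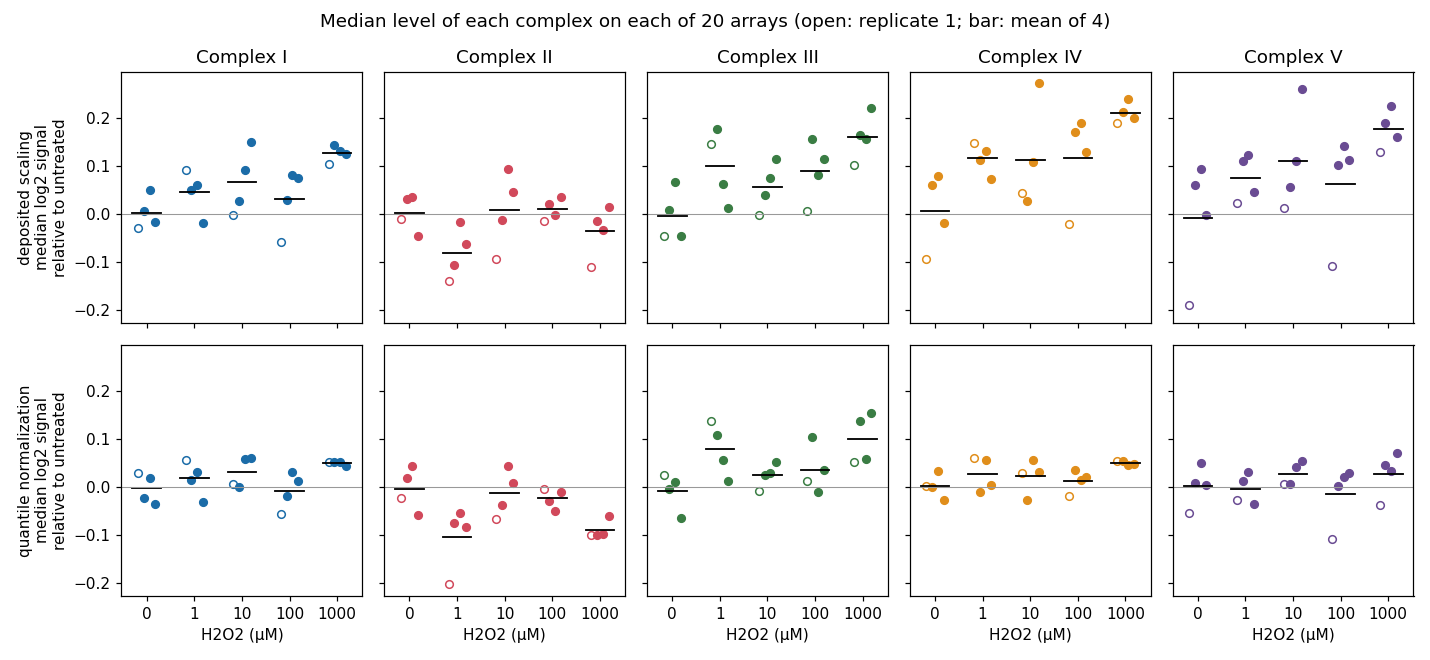
Median log2 signal of the tested members of each complex on each of the 20 arrays, relative to the mean of the 4 untreated arrays, by H2O2 dose. The upper row is on the deposited scale and the lower row after quantile normalization; points are arrays (open for replicate 1) and bars are means of 4. At 1000 µM complex IV lies at 0.19 to 0.24 in the upper row and at 0.05 in the lower, and complex II in the lower row lies at -0.10 to -0.06.

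Counted per probe set, 41 of 143 members (28.7%) were higher on all 4 arrays at 1000 µM than on all 4 untreated arrays, where 6.66% of all tested probe sets were, and 1 (0.699%) was lower, where 13.8% were. By complex these 41 were 16 in complex I, 1 in complex II, 2 in complex III, 12 in complex IV, 9 in complex V and 1 assembly factor. After quantile normalization 14 members (9.79%) were higher, against 6.59% of all, and 3 (2.1%) lower, against 8.04%. The 3 were the Sdha probe set, Cox6c (1434491_a_at) and Atp5md.

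The members also shared a high signal. Of the 143, 118 (82.5%) were in the brightest of 5 equal classes of tested probe sets by mean signal, and so were all 13 that rose. On the deposited scale the median change at 1000 µM over all probe sets differed by brightness, at -0.18 in the dimmest class and 0.11 in the brightest. In the brightest class 74% of all probe sets were above 0 and 6.82% rose. The members in that class had a median of 0.16, and 11% of them rose. After quantile normalization the same class had medians of 0.03 for the members and 0.01 for all, and 0 of the 118 members passed the test, against 1.18% of all probe sets in it.

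The spread of values differed between the groups on the deposited scale. The interquartile range of an array's log2 signals was 2.51 to 2.56 at 1000 µM and 2.35 to 2.41 in untreated myotubes, and the median log2 signal was 7.24 to 7.28 at 1000 µM and 7.41 to 7.53 in untreated myotubes. The interquartile range was 2.33 to 2.57 at 1 µM, 2.39 to 2.48 at 10 µM and 2.39 to 2.46 at 100 µM. The widest of the 20 arrays was 1 µM replicate 1 (2.57, median 7.26). Apart from that array, every array at 1000 µM was wider than every array of the other doses. Centring each array on its median, the third scaling, put the median of all tested probe sets at 0.13 and gave 73 rising members, 51% of the 143, where 14.1% of all tested probe sets rose. The members' median stood above that of all probe sets by 0.21 on the deposited scale, a gap that centring leaves the same by construction, and by 0.03 after quantile normalization. Whether the wider spread at 1000 µM lies in the RNA or in the arrays was not tested.

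**Figure D5:**
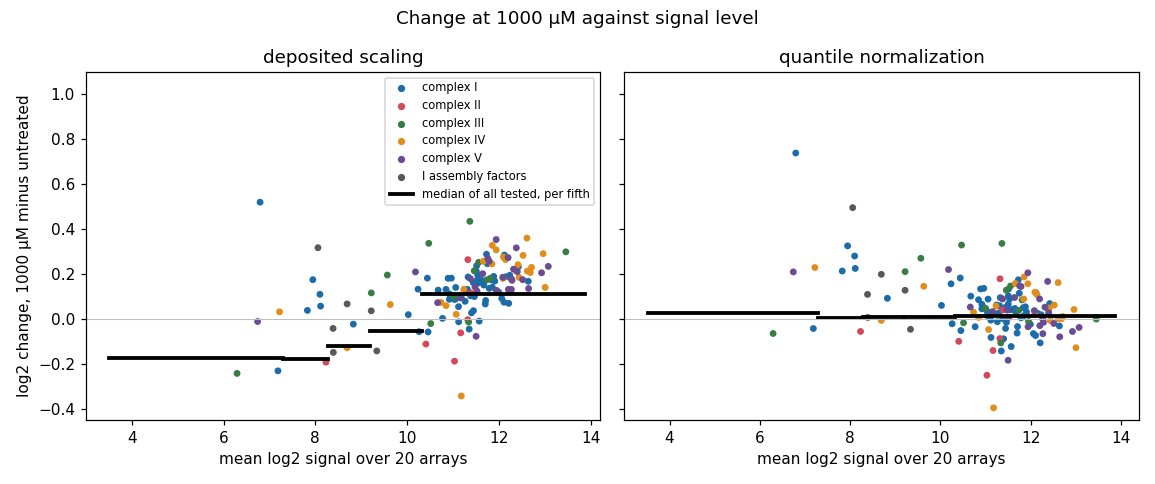
Log2 change at 1000 µM against untreated myotubes for the 143 tested members, plotted against mean log2 signal over the 20 arrays on the deposited scale; black bars are medians of all tested probe sets in each of 5 equal classes of signal. The bars climb from -0.18 to 0.11 on the left (deposited scale) and stay between 0.00 and 0.02 on the right (quantile normalization), and 118 of the 143 members lie in the brightest class.

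The calls at 1000 µM rested on single arrays to differing degrees. Of the 13, Ndufa7 and Cox7a2 kept their call without any 1 of the 8 arrays, and the other 11 lost it without 2 to 6 of them. The count of rising members was 3 without 1000 µM replicate 3, 4 without untreated replicate 4, 5 without untreated replicate 1, 7 without untreated replicate 2, and 8 without 1000 µM replicate 2 or 4, where 1.37% to 1.66% of all tested probe sets rose. Within replicates 2 to 4, 25 probe sets rose and 1 (Cox6c, 1434491_a_at) fell, beside 4.85% rising and 12.7% falling over all tested probe sets. They included 10 of the 13, all but Ndufs8 (adjusted p = 0.0608), Cox5b (0.0936) and Uqcrb (0.151), and their complexes were I (7), II (1), III (3), IV (8) and V (6).

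Other comparisons within replicates 2 to 4 called more members than the fit to all arrays. At 1000 against 100 µM, 4 members rose (Ndufb11, Ndufc2, Uqcrc1 and Atp5o) and 1 fell (Cox6c), beside 2.21% and 6.84% of all tested probe sets. The trend called 35 rising and 1 falling, beside 6.48% and 14.7%, and the F-test 20, which is 14% of the members beside 20.3% of all. By limma's test 0 members were called at 10 µM (0% rising and 0.0278% falling over all), at 100 µM (1.36% and 1.13%) and for 100 against 10 µM (1.4% and 0.668%). At an unadjusted p under 0.05, 21 members were higher and 7 lower at 10 µM (3.25% and 6.18% of all), 18 and 4 at 100 µM (5.83% and 9.04%), and 1 and 2 for 100 against 10 µM (6.16% and 6.12%).

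Probe sets of 1 gene did not always move together. Of the 13 genes that rose, 11 had further tested probe sets, 22 in all, and 0 of these rose, although 18 of the 22 were above 0, over a range of -0.19 to 0.33. Ndufa7, for example, had 4 more probe sets at 0.19, 0.17, -0.02 and -0.05, and Ndufs8 5 more between -0.06 and 0.16. Among the 42 genes with several tested probe sets, the widest gaps were in Cox6c, Uqcrq (0.25 and -0.24) and Sdhd. Of the 13 probe sets that rose, those of Cox8a, Ndufs8, Ndufa7 and Cox5b carry the suffix x, which the array's maker gives to sets that may also bind other sequences.

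Other mitochondrial genes were read from lists, each gene by its brightest tested probe set alone. The background for every list at 1000 µM was 2.46% rising and 8.48% falling over all tested probe sets. After quantile normalization it was 2.04% and 3.32%. Of 29 tested assembly factors of complexes I to V outside the Ndufaf group, 1 rose and 0 fell at 1000 µM, with a list median of 0.03 beside -0.07 over all tested probe sets. This was Coa3, an early factor of complex IV assembly, at 0.25 ± 0.08 (adjusted p = 0.0481), and its call was lost without any 1 of the 8 arrays. Surf1, another complex IV factor, was at 0.21 (adjusted p = 0.0535) and rose by 0.30 (adjusted p = 0.0139) after quantile normalization. Of 16 genes of pyruvate dehydrogenase and the citric acid cycle, Mdh2, the mitochondrial malate dehydrogenase, rose by 0.32 ± 0.08 (adjusted p = 0.0142) and Ogdh, of the oxoglutarate dehydrogenase complex, fell by 0.29 (adjusted p = 0.0297), with a median of 0.05. Of 12 other electron carriers, cytochrome c (Cycs) rose. It had 7583, 6994, 7117 and 6689 at 1000 µM against 5482, 5942, 5722 and 5702 untreated, a change of 0.31 ± 0.09 (adjusted p = 0.0372). Of 7 membrane carriers, the phosphate carrier Slc25a3 rose by 0.29 ± 0.09 (adjusted p = 0.0389), with a median of 0.21. The call of Cycs was lost without any 1 of the 8 arrays (adjusted p from 0.0515 to 0.0893), that of Slc25a3 without 6 of them and that of Ogdh without 5, while Mdh2 kept its call without any 1 of them. Coa3, Mdh2, Ogdh, Cycs and Slc25a3 missed the test after quantile normalization (adjusted p from 0.133 to 0.728). The list medians, in the order given, were then 0.09, -0.01, 0.08 and 0.02, beside 0.01 over all tested probe sets. The lists were not compared with probe sets of like brightness. On the deposited scale the brightest class of all tested probe sets had a median of 0.11.

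Among 11 tested nuclear regulators of mitochondrial genes, 1 rose and 3 fell at 1000 µM, with a median of -0.00 (0.02 after quantile normalization). Of all tested probe sets, 2.46% rose and 8.48% fell. The 3 that fell lay in classes 2 and 3 of the 5 brightness classes, counted from the dimmest. On the deposited scale these classes had medians of -0.18 and -0.12 over all probe sets, and 348 of 2876 and 336 of 2875 fell. At 1 and 10 µM none of the genes in these lists passed the test. Ppargc1b, a coactivator of mitochondrial gene expression, had 181, 180, 184 and 189 at 1000 µM, against 386, 286, 271 and 286 untreated. It fell by 0.73 (SE 0.13, adjusted p = 0.00127) with no overlap of the groups, and by 0.55 after quantile normalization (adjusted p = 0.0164). Its means were 307 untreated, 326 at 1 µM, 284 at 10 µM, 238 at 100 µM and 184 at 1000 µM, and only the top dose passed the test. Polrmt, the mitochondrial RNA polymerase, fell by 0.41 (SE 0.10, adjusted p = 0.00877), and Pprc1, a relative of the coactivators, fell by 0.38 (SE 0.11, adjusted p = 0.0293). The call of Pprc1 was lost without 5 of the 8 arrays, while Ppargc1b and Polrmt kept theirs without any 1 of them. Polrmt and Pprc1 missed the test after quantile normalization (adjusted p = 0.069 and 0.309).

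Gabpb1, the partner of the DNA-binding GABP subunit, rose at 100 and at 1000 µM. It had 565, 366, 390 and 411 at 100 µM and 449, 388, 320 and 388 at 1000 µM, against 283, 246, 277 and 304 untreated. The changes were 0.63 ± 0.14 (adjusted p = 0.0314) at 100 µM and 0.47 ± 0.14 (adjusted p = 0.0408) at 1000 µM, and 0.69 and 0.63 after quantile normalization (adjusted p = 0.0105 and 0.00979). Replicate 1 is the highest array at both doses, and without 100 µM replicate 1 the change there was 0.49 (adjusted p = 0.132), while without 1000 µM replicate 1 it was 0.39 (adjusted p = 0.109). The call was lost without 5 of the 8 arrays compared at 100 µM and without 7 of the 8 at 1000 µM. Gabpa, the DNA-binding subunit, was at 0.04 at 100 µM.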

How the data were processed

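Signal intensity was measured on 20 Affymetrix Mouse Genome 430A arrays, 4 a dose. Per the labels' processing notes and the series' design text, the authors made the deposited intensity values with Microarray Suite 5.0; the values are linear, not log-transformed, and the trimmed mean of every array (2% left out at each end) was 500.1 to 500.2, a scaling target of 500. Depth has no counterpart on arrays, where the number of arrays limits precision.

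Values were floored at 1 and log2-transformed, and probe sets above the 40th percentile on at least 4 of 20 arrays were kept. limma 3.58.1 (R 4.3.3) was fitted to all 5 groups (lmFit, eBayes with trend, 15 residual degrees of freedom), with Benjamini-Hochberg adjustment over all 14379 probe sets within each comparison and a threshold of 0.05. Quantile normalization was the other scaling. Other alternatives were median centring, no filter, a 60th percentile filter, a pseudocount of 32, a replicate block, replicates 2 to 4 only, array weights, 1 probe set a gene, and leaving out each array. The fit was tested on simulated data. Gene names come from GEO's platform annotation, and all 85 member symbols matched RefSeq. Promoters are from RefSeq (GRCm38.p6).

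Genes were named if they were called, or if they had the highest or lowest change of their complex at 100 or 1000 µM. Also named were listed core subunits, subunits that hold redox or catalytic centres or have muscle isoforms, and assembly factors. Other genes come from lists, where changes were read from each gene's brightest tested probe set alone. The members and lists were chosen with earlier results of these data known.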

Additional observations from a re-analysis of the deposited data

Results flagged for a closer look

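In 13 of 180 groups of 4 arrays, 1 array stood far from the other 3 (its gap over the group's range was above Dixon's critical value), and chance gives this in about 1 of 20 groups. In complex V at 100 µM the median of replicate 1 was -0.11 on the deposited scale, beside 0.10 to 0.14. After quantile normalization, replicate 4 at 1000 µM was at 0.044 in complex I, beside 0.051 to 0.052, and at -0.060 in complex II, beside -0.100 to -0.098. Uqcrc1 had 3409 on 10 µM replicate 1, beside 2227 to 2305, and 3783 on 1000 µM replicate 2, beside 2952 to 3022. Uqcr10 had 1388 on 1000 µM replicate 1, beside 1672 to 1710. Cox6c (1434491_a_at) had 1570 on 100 µM replicate 1, beside 2722 to 2803, and Cox8a had 4307 on 100 µM replicate 4, beside 4096 to 4117. Ndufb5 had 2021 on 100 µM replicate 3, beside 1720 to 1760. Ndufs8 had 3004 on 1 µM replicate 2, beside 3568 to 3598, and Atp5h had 5490 on 10 µM replicate 4, beside 4687 to 4797. In untreated replicate 1, Cox6a1 had 4400, beside 5903 to 6066, and Ppargc1b had 386, beside 271 to 286.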

How the results depend on the processing

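Shares in parentheses are those of all tested probe sets called under the same setting. At 1000 µM against untreated, the 13 rising members (2.46%) were 1 after quantile normalization (2.04%), 73 after median centring (14.1%), 8 with no filter (1.11%), 26 with the replicate block (5.87%), 25 within replicates 2 to 4 (4.85%), 50 with array weights (9.28%), and 3 to 12 when 1 array was left out (1.37% to 2.1%). Members falling there were 1 with no filter (4.35%), within replicates 2 to 4 (12.7%), and with array weights (20.4%). The stricter filter (3.45%) and the pseudocount of 32 (2.47%) gave 13. Uqcrb was at -0.00081 after quantile normalization. At 1 µM, 2 members fell within replicates 2 to 4 (0.612%) and 1 with array weights (0.257%). At 100 µM, 3 rose with array weights (2.73%). At 1000 against 100 µM, members rising were 1 after centring (1.45%), 5 with the block (2.3%), 4 within replicates 2 to 4 (2.21%) and 17 with array weights (5.28%). There 1 fell within replicates 2 to 4 (6.84%), with array weights (13.2%), and without 100 µM replicate 1 (2.41%), and 0 to 1 over the arrays left out.

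The 10 members rising in the trend (2.82%) were 0 after quantile normalization (3%), 53 after centring (12.2%), 22 with the block (6.12%), 35 within replicates 2 to 4 (6.48%), 42 with array weights (9.44%), and 4 (without 1000 µM replicate 3) to 13 with 1 array left out, with 5 without 1000 µM replicate 2 or untreated replicate 1 and 6 without replicate 4 of either group (1.92% to 3.39% over the arrays left out). Of falling members there was 1 with no filter (4.32%), within replicates 2 to 4 (14.7%) and with array weights (20%). The 4 members in the F-test (8.01%) were 2 after quantile normalization (5.44%), 12 after centring (6.72%), 1 with no filter (4.09%), 9 with the block (15.8%), 20 within replicates 2 to 4 (20.3%) and 32 with array weights (33.2%). Without single arrays the F-test called 0 to 5 (4.69% to 10.3%), with 0 without 1000 µM replicate 2, 3 or 4.

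Complex medians after centring, at 1, 10, 100 and 1000 µM, were 0.12, 0.17, 0.10 and 0.33 in complex I, -0.012, 0.10, 0.073 and 0.14 in complex II, and 0.18, 0.19, 0.19 and 0.38 in complex III. They were 0.20, 0.18 and 0.42 at 10, 100 and 1000 µM in complex IV and 0.20 and 0.38 at 10 and 1000 µM in complex V. After quantile normalization they were 0.042 (I), 0.066 (III), 0.045 (IV) and 0.035 (V) at 1000 µM, 0.043 in complex III at 100 µM, and -0.0015, 0.013 and 0.027 in complex IV at 1, 10 and 100 µM. With 1 probe set a gene, complex II was at 0.012, 0.061, 0.080 and 0.056, and complex III at 0.19 at 10 µM. With 1 array left out, complex I at 100 µM ranged from 0.011 to 0.080 (without replicate 1), complex III at 100 µM from 0.039 (without untreated replicate 1) to 0.13 and complex II at 1000 µM from -0.085 to 0.0060 (without replicate 3). The causes of these shifts were not tested.

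The plain correlation between 2 arrays ran from 0.934 to 0.990 over all pairs, and the pairing correlation given next is a different measure. Same-numbered arrays had pairing correlations of 0.462 to 0.514 for number 1 and 0.0531 to 0.195 for number 2. They were 0.109 to 0.245 for number 3 and 0.00993 to 0.261 for number 4. Of 36 same-numbered pairs, 33 were over 0.1. Of 19 numbered arrays, 4 correlated best, among arrays of other doses, with one of their own number. Since pairing was taken to need every pair over 0.1 and the labels name no shared batch, the numbers were not taken to pair the samples. The block leaves out the unnumbered 10 µM array. Precision is limited by 4 arrays a group, and under quantile normalization none of the 13 calls at 1000 µM held.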
